A study of Sus scrofa with 9 samples.

Results

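A stretch of 197 kb on pig chromosome 9 holds 7 genes of the count table that were almost silent in control myoblasts and higher in cells with a DUX transgene. With a transgene they ranged from scarce, for LOC106504145, to among the most abundant of the whole table, for LOC100623167. The 7 genes are LOC100623167, LOC100623257, LOC100524034, LOC100737224, LOC100737633, LOC106504145 and NAALAD2, out of 27339 genes in the table. They were taken by identifier as neighbours around UBTFL1 between positions 22965206 and 23161825 (Sscrofa11.1, RefSeq). They were chosen by their measured counts in these libraries, higher with a transgene and near 0 with GFP, so their levels are given as a description, and no test is attached to them.

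The study sequenced polyadenylated RNA of primary myoblasts from Göttingen pigs, at passages 7 to 9, in 9 libraries. A doxycycline-inducible transgene for human DUX4 was carried in 3 libraries, one for pig DUXC in 3 and one for GFP, the control, in 3. All of them, the controls included, had 1 µg/mL doxycycline for 16 h before harvest, so no group lacked the drug. Nothing in the labels ties the 3 libraries of a group to separate cultures or animals, so p-values measure only the spread between libraries, which may be technical.

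DUX4 and DUXC are double homeobox transcription factors. Human DUX4 is active in the cleavage-stage embryo, where it switches on early embryonic genes, and its return in skeletal muscle causes facioscapulohumeral muscular dystrophy. Among the genes of the chromosome 9 stretch, NAALAD2 encodes a membrane-bound zinc peptidase that can release glutamate from the neuropeptide N-acetylaspartylglutamate. UBTFL1, which lies between the members without being counted as one, encodes an HMG-box protein whose mouse relative is active in the preimplantation embryo. The other 6 members carry locus identifiers only, and no function is given to them here.

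Total counts ranged from 36580573 to 44420895 per library. Levels are read counts normalised to library size (counts per 1e+06 reads, CPM), as mean ± SD of n = 3 libraries unless single libraries are given. The myoblast label was only in part borne out by its markers: in the GFP libraries MYOD1 had 1 count, MYOG 6, PAX7 48 and MYF5 84, while NCAM1 stood at 86.4 ± 4.25 CPM and the fibroblast genes COL1A1, COL1A2, DCN and PDGFRA summed to 37144 to 39747 CPM. That fibroblast sum was 22655 to 25527 CPM with DUX4 and 15010.4 to 15224 CPM with DUXC, and was mostly COL1A1 and COL1A2. PDGFRA instead went from 373.3 CPM with GFP to 162.9 with DUX4 and 925.5 with DUXC, and DCN from 2108.5 to 800.2 and 1155.1. The 7 myoblast markers summed to 90.5 to 99.4 CPM with GFP, 108.8 to 111.7 with DUX4 and 59.1 to 61.4 with DUXC. NCAM1 made up most of that sum, at 105.4 CPM with DUX4 and 55.8 with DUXC. DES went from 7.15 CPM to 2.10 and 1.07, while mean PAX7 (0.402, 0.568 and 1.13) and MYF5 (0.705, 2.16 and 1.78) were higher with both transgenes. MYOD1, MYOG and CDH15 had at most 31 counts in any group. The early embryo genes LEUTX, ARGFX, ZSCAN4 and DUXA had no count with GFP and summed to 1.2 to 1.72 CPM with DUX4 and 106.8 to 117.0 CPM with DUXC, and the smooth muscle genes ACTA2 and MYH11 summed to 1609 to 1719 CPM, 216.7 to 237.0 CPM and 345.9 to 369.5 CPM with GFP, DUX4 and DUXC. The part of such differences in cell state in the results below was not tested, and in bulk RNA fewer cells of a type and less RNA per cell cannot be told apart.

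The 7 members together went from near 0 to a sizeable part of all messenger RNA reads. Their summed count was 29, 19 and 13 in the 3 GFP libraries, 136400, 162886 and 146329 with DUX4, and 568467, 651477 and 590983 with DUXC. As a share of all counted reads this was 0.355 ± 0.0208% with DUX4 and 1.60 ± 0.0608% with DUXC, against 0.000049 ± 0.000018% with GFP. On the normalised scale the sum with GFP was 0.510 ± 0.189 CPM, against 3614 ± 225 CPM in the DUX4 and 15227 ± 653 CPM in the DUXC group. Every DUXC library lay above every DUX4 library, and these above every GFP library. The sum with DUXC was 4.21 times that with DUX4, and the 9 possible pairs of a DUXC with a DUX4 library gave 3.91 to 4.76.

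The most abundant member was LOC100623167 (22965206 to 22971694), at the left end of the stretch. Its level was 0.392, 0.0514 and 0.0513 CPM in the GFP libraries, 2148, 2412 and 2410 CPM with DUX4 and 8258, 9003 and 8509 CPM with DUXC. By read count it was the gene at rank 4 of the whole table in each DUXC library, and at rank 31 to 34 in the DUX4 libraries. The ratio of pooled counts to those with GFP, scaled by library size, was 13804 for DUX4 and 51059 for DUXC. These ratios rest on 20 control counts, 16 of them in GFP replicate 1. Without that library they were 45275 (95% counting interval 17682 to 166168) and 167463 (65405 to 614621). Such intervals, and the floors used for genes without control counts, take in counting error and nothing else.

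LOC100737633 (23037420 to 23042678) came next. It had 0.0979, 0.103 and 0.0257 CPM with GFP, 1031, 1130 and 1139 CPM with DUX4 and 3756, 4076 and 3865 CPM with DUXC. It ranked 94 to 102 by read count with DUX4 and 15 to 16 with DUXC. LOC100623167 and LOC100737633 lie at the ends of the row of 5 members left of UBTFL1 and kept a nearly fixed proportion: LOC100623167 had 2.08 to 2.14 times the counts of LOC100737633 in the DUX4 libraries and 2.20 to 2.21 times in the DUXC libraries.

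The 3 loci between them were less abundant. LOC100623257 (22972930 to 22981782) had 1, 2 and 2 counts with GFP, 122, 139 and 143 CPM with DUX4 and 1152, 1235 and 1167 CPM with DUXC. LOC100524034 (23009082 to 23015287) had 1 count in GFP replicate 1 and none in the other controls, 32.1, 34.2 and 36.6 CPM with DUX4 and 1105, 1215 and 1114 CPM with DUXC. With DUXC these neighbours were therefore about equal in reads, LOC100623257 having 1.02 to 1.05 times the counts of LOC100524034, whereas with DUX4 it had 3.80 to 4.05 times.

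LOC100737224 (23025124 to 23031338) also had a single control count, in GFP replicate 1. Its level was 11.0, 10.2 and 12.9 CPM with DUX4 and 369, 382 and 368 CPM with DUXC. It followed LOC100524034 in both groups, with LOC100524034 having 2.84 to 3.35 times its counts with DUX4 and 3.00 to 3.18 times with DUXC. The spans of these loci are of nearly equal length, 6206 and 6215 bp. Whether the counting shared or dropped reads that match several of the members with locus identifiers was not analysed here, so the division of reads among these 6, and with it their proportions, ratios and shares, is uncertain.

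Against 1 control count, the ratio of DUXC to GFP was 136110 for LOC100524034 (counting interval 24429 to 5376078) and 44308 for LOC100737224 (7952 to 1750098). The corresponding ratios for DUX4 were 4071 (730.3 to 160839) and 1345 (241 to 53169). Without GFP replicate 1 both loci had no control count, and against a floor of 3 counts over the group LOC100524034 was at least 29761-fold higher with DUXC and at least 890.2-fold higher with DUX4, and LOC100737224 at least 9688-fold and 294-fold. These intervals are wide because they rest on a single control count.

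The 2 members to the right of UBTFL1 were scarcer. LOC106504145 (23080180 to 23095529) had no count with GFP, which allows up to 0.0253 CPM over the group, and 0.811, 0.826 and 0.923 CPM with DUX4 and 3.33, 3.52 and 3.54 CPM with DUXC. It was at least 33.7-fold higher with DUX4 and at least 137-fold higher with DUXC. Without GFP replicate 1 these bounds were 22.1-fold and 90.05-fold, since the floor then rests on fewer libraries.

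NAALAD2 (23106795 to 23161825) was the member with the most control counts, 6, 11 and 8. It had 360, 484 and 339 counts with DUX4 and 1189, 1361 and 1264 counts with DUXC. On the normalised scale the means were 0.211 ± 0.068, 9.55 ± 1.35 and 32.1 ± 1.32 CPM for GFP, DUX4 and DUXC. The latter 2 are 45.6 times (30.7 to 70.8) and 152 times (103 to 236) the control. The peptidase gene is thus the member with the smallest ratio of DUXC to GFP among those with a control count. A noncoding RNA gene, LOC110255413, lies within its span and had 1 count over all 9 libraries.

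**Figure D1:**
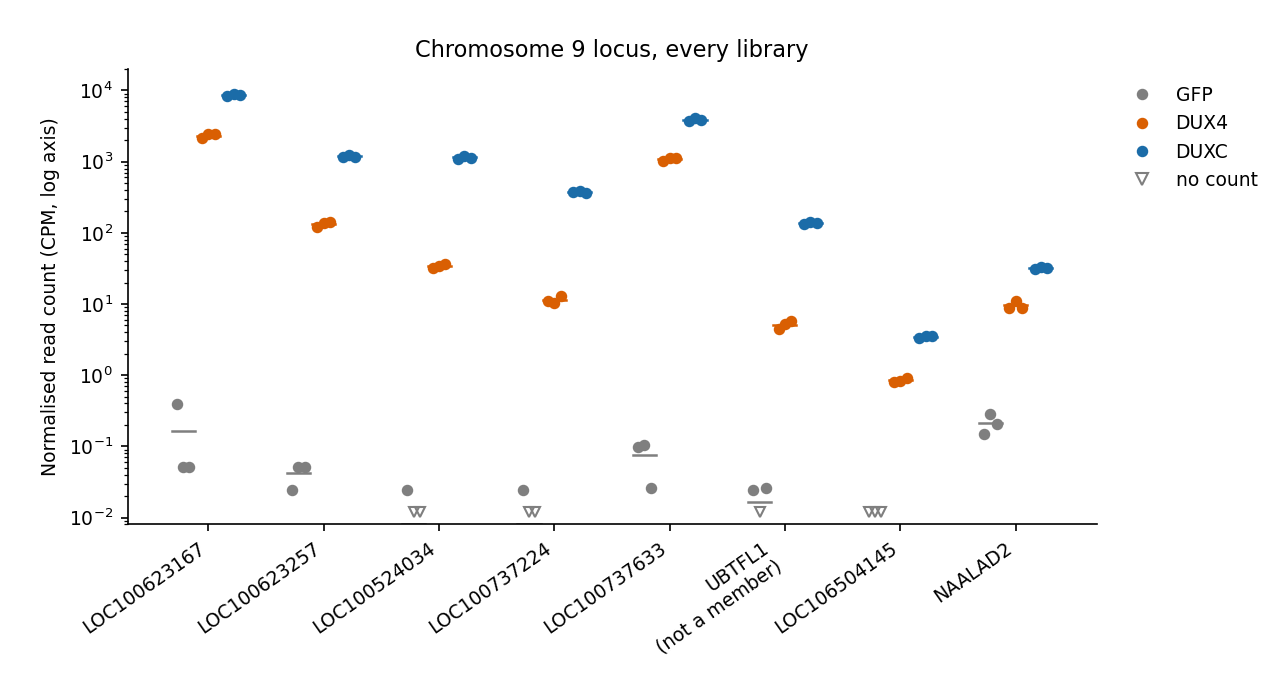
Normalised read count (CPM, log axis) of each member and of UBTFL1 in every library, in chromosomal order, with GFP in grey, DUX4 in orange and DUXC in blue. Points are libraries, short lines are group means, and open triangles mark libraries without a count. In each of the 8 genes the DUXC libraries lie above the DUX4 libraries and these above the GFP libraries, from 0.811 to 9003 CPM with a transgene.

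In all 7 members the DUX4 libraries lay above the GFP libraries, the DUXC libraries above the GFP libraries, and the DUXC libraries above the DUX4 libraries. Over all 15956 genes with enough counts to be tested, the same held for 34.0%, 40.6% and 42.0%, and edgeR's quasi-likelihood test (adjusted p under 0.05) called 82.4% of them between DUX4 and DUXC, 40.8% higher and 41.6% lower with DUX4. Nothing is read from the members' count, since they were chosen for levels raised with a transgene. All 7 passed the filter on low counts, and each passed it only through its counts with a transgene.

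Per kilobase of gene span, introns included, the order with DUXC was LOC100623167 at 1324 CPM per kb, LOC100737633 at 741, LOC100524034 at 184, LOC100623257 at 134, LOC100737224 at 60.0, NAALAD2 at 0.583 and LOC106504145 at 0.226. With DUX4 the same scale gave 358, 209, 5.53, 15.2, 1.83, 0.174 and 0.0556 CPM per kb for these genes, so LOC100524034 and LOC100623257 changed places. The long span of NAALAD2, 55031 bp, weighs on its value. Exon lengths were not used here.

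UBTFL1 (23060755 to 23069983) sits between LOC100737633 and LOC106504145. Its level was 5.11 ± 0.685 CPM with DUX4 and 138.9 ± 4.75 CPM with DUXC, and it had 2 counts over the GFP libraries. LOC100524034 had 6.34 to 7.30 times the counts of this HMG-box gene with DUX4 and 8.05 to 8.44 times with DUXC. RefSeq places 1 more gene in the middle of the stretch, the pseudogene LOC100737259 between LOC100524034 and LOC100737224, which is not analysed here.

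**Figure D2:**
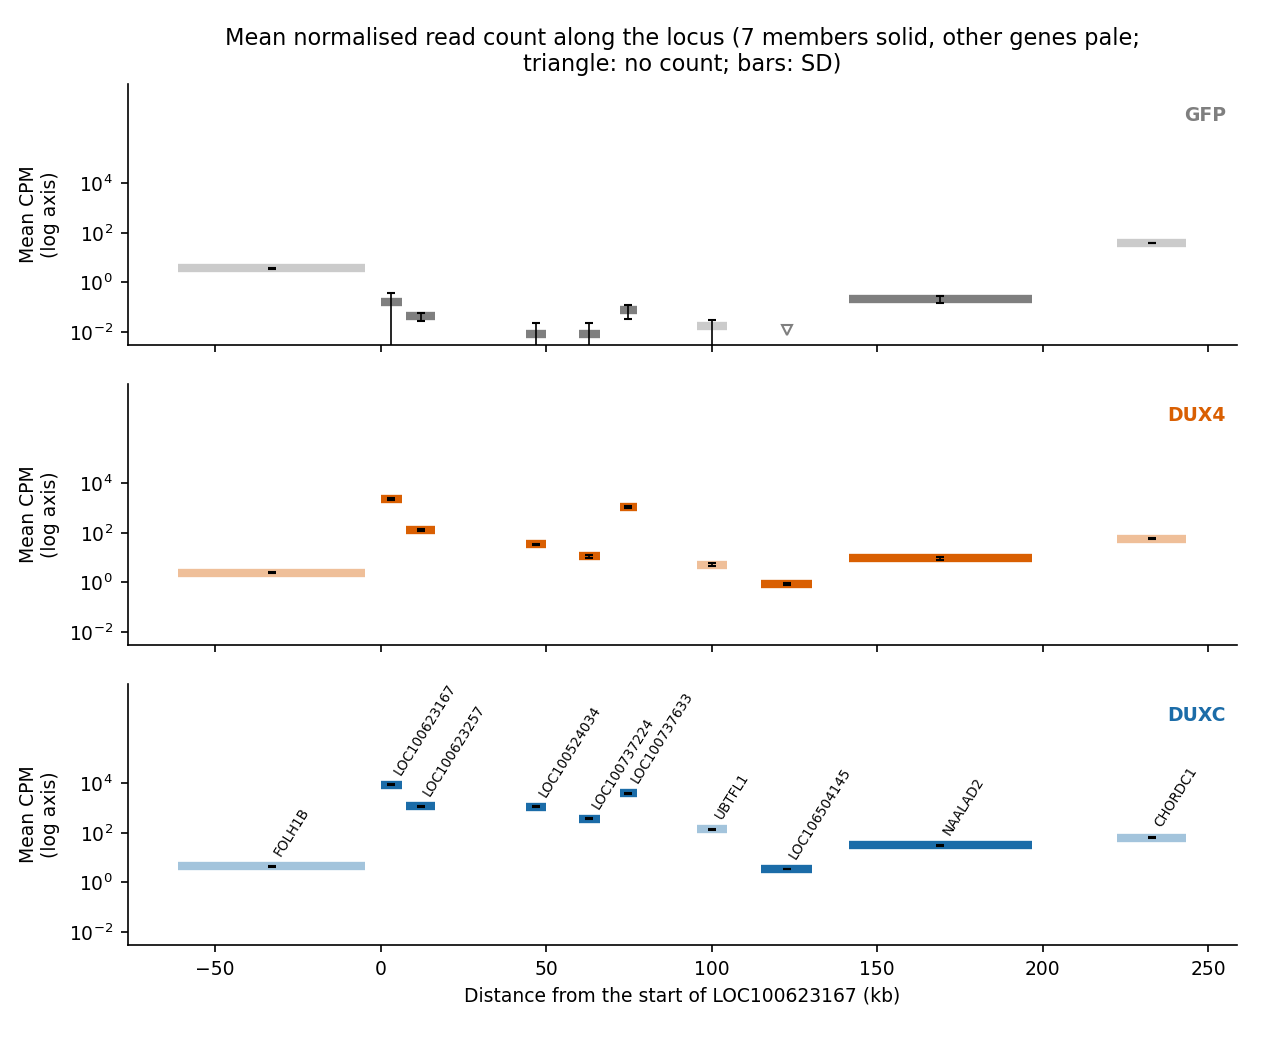
Mean normalised read count (CPM, log axis) of each gene along the stretch in the GFP, DUX4 and DUXC libraries, drawn over the gene's span in kb from the start of LOC100623167. Solid segments are the 7 members, pale segments are UBTFL1 and the nearest genes outside, black bars are the SD of 3 libraries (a bar that would reach 0 leaves the log axis), and the triangle marks a gene without counts. FOLH1B and CHORDC1, at the edges, stay within 2.51 to 4.47 CPM and 38.9 to 64.7 CPM in the 3 groups.

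The members fell apart in how far DUXC exceeded DUX4. The ratio of the mean CPM with DUXC to that with DUX4 was 3.36 for NAALAD2 (2.76 to 3.83 over the 9 pairs of libraries), 3.54 for LOC100737633 (3.30 to 3.95), 3.70 for LOC100623167 (3.42 to 4.19) and 4.06 for LOC106504145 (3.61 to 4.37). These 4 ranges overlap, but libraries share part of their spread between genes. Within libraries LOC100623167 had 2.08 to 2.14 times the counts of LOC100737633 with DUX4 and 2.20 to 2.21 times with DUXC, so its ratio was the higher of these 2 in each of the 9 pairs. NAALAD2 over LOC106504145, at 9.42 to 13.4 with DUX4 and 9.09 to 9.45 with DUXC, overlapped between the groups. LOC100623257 stood alone at 8.81 (8.07 to 10.1).

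The ratio was 32.8 for LOC100737224 (28.6 to 37.4) and 33.4 for LOC100524034 (30.2 to 37.8), and UBTFL1, at 27.2 (23.3 to 32.7), overlapped both over pairs of libraries. Within libraries LOC100524034 over UBTFL1 did not overlap between the groups, as given above, so LOC100524034 had the higher ratio in each pair. The ranges of these 3 genes did not meet those of the others. Along the chromosome the values ran 3.70, 8.81, 33.4, 32.8, 3.54, 27.2, 4.06 and 3.36, so that LOC100737633, with a low ratio, lies between genes with high ones. This grouping was made after the values were seen and carries no test.

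Among the 421 other genes whose fitted level was at least 8-fold higher with both factors than with GFP, the median ratio of DUXC to DUX4 was 6.23, with quartiles of 2.32 and 17.3. The ratio was 24-fold or more in 75 of them (17.8%), and DUXC gave the higher level in 373. The 4 low ratios of the chromosome 9 genes thus lie between the lower quartile and the median of these genes, and the 3 high ones above the upper quartile. Both comparisons with GFP share the same 3 control libraries.

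**Figure D3:**
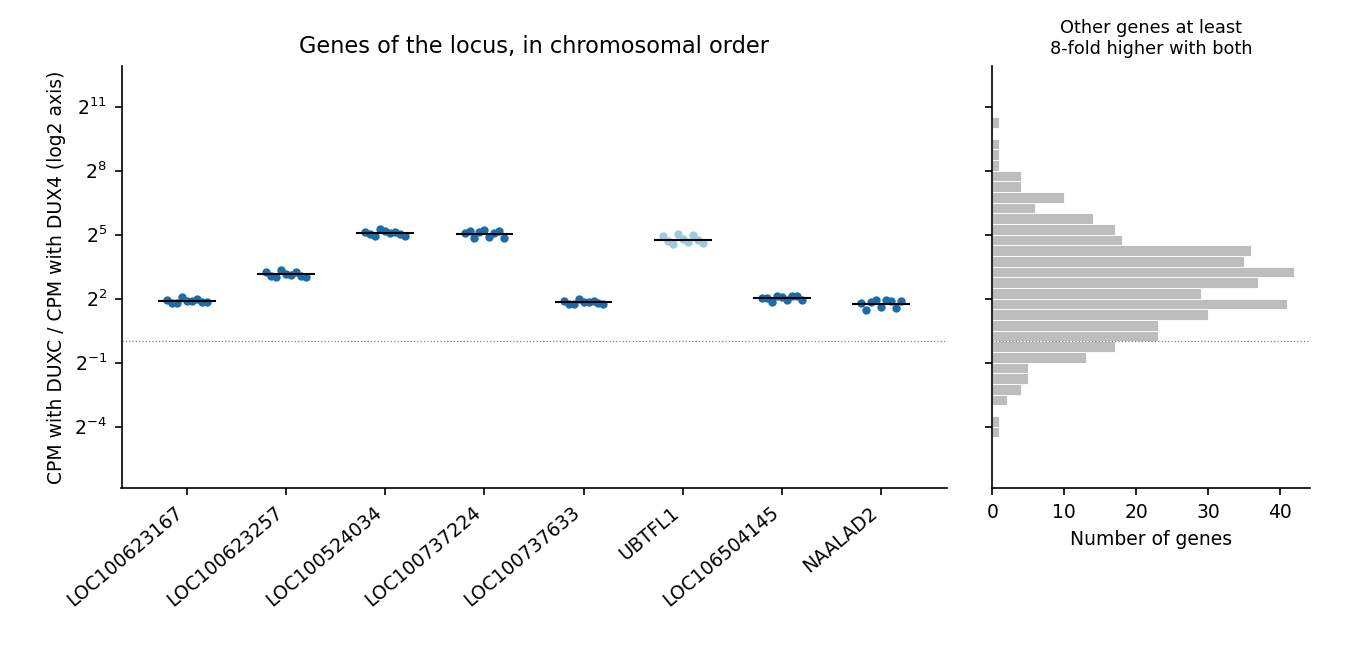
Ratio of CPM with DUXC to CPM with DUX4 (log2 axis) for the genes of the stretch in chromosomal order, with 1 point for each of the 9 pairs of libraries, a line for the ratio of means and UBTFL1 in pale blue. The histogram at the right gives the fitted ratio for the 421 other genes at least 8-fold higher with both factors. The locus genes form a low group at 3.36 to 4.06, LOC100623257 at 8.81 and a high group at 27.2 to 33.4.

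The make-up of the summed reads differed between the factors. LOC100623167 and LOC100737633 held 94.7 ± 0.094% of the members' reads with DUX4 and 82.0 ± 0.15% with DUXC. The share of LOC100524034 was 0.95 ± 0.030% with DUX4 and 7.52 ± 0.11% with DUXC, that of LOC100623257 3.72 ± 0.083% and 7.78 ± 0.060%, and that of LOC100737224 0.315 ± 0.037% and 2.45 ± 0.060%. In the GFP libraries NAALAD2 had 25 of the 61 counts, a share of 41.0% (exact 95% interval 28.6 to 54.3%), against 0.264 ± 0.033% with DUX4 and 0.211 ± 0.0028% with DUXC.

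**Figure D4:**
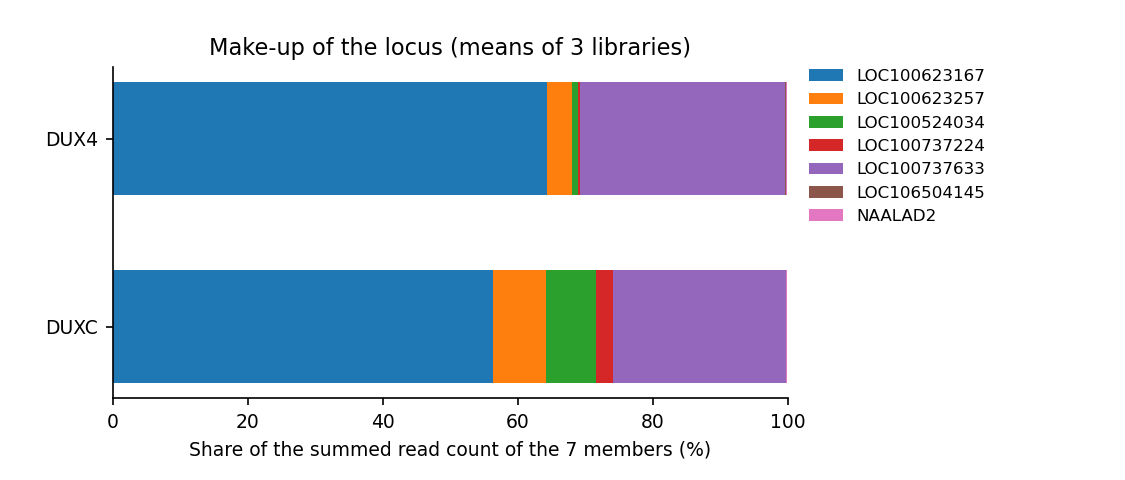
Share of each member in the summed read count of the 7 members (%), as means of 3 libraries with DUX4 and with DUXC. LOC100623167 is the widest segment in both groups, at 64.3% with DUX4 and 56.4% with DUXC, and LOC100524034 widens from 0.95% to 7.52%.

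The members' coefficient of variation over 3 libraries was higher with DUX4 than with DUXC. It was 5.46% to 14.1% with DUX4, highest for NAALAD2, and 2.13% to 5.31% with DUXC. Over genes with a mean of at least 100 counts the median was 3.87% with DUX4, with an upper quartile of 6.0%, and 3.48% with DUXC, with an upper quartile of 5.64%. LOC106504145, with 33 to 36 counts per library with DUX4, lay under that cut. All members had fewer counts with DUX4 than with DUXC, so counting noise also differs between these groups. With DUX4, replicate 1 was the lowest library for 5 of the 7 members, and with DUXC replicate 1 was the lowest for 6. DUXC replicate 2 was the highest for 6 members, not the same 6.

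GFP replicate 1 held more of the scarce control counts than the other controls. Leaving out NAALAD2, the members had 23 counts there, against 8 and 5 in GFP replicates 2 and 3. Most of this difference came from LOC100623167, with 16, 2 and 2 counts in GFP replicates 1, 2 and 3. LOC100737633 had 4, 4 and 1 and LOC100623257 had 1, 2 and 2. The same library was the highest of the 3 controls in 13 of the 14 other genes that reached 1000 CPM or more with DUXC and were under 1 CPM with GFP, with summed counts of 121, 42 and 25 in GFP replicates 1, 2 and 3. Without GFP replicate 1 the ratios to GFP were 2620 with DUX4 and 23097 with DUXC for LOC100623257, 17142 and 60802 for LOC100737633, and 39.4 and 132 for NAALAD2. With that library they were 3195 and 28169, 14519 and 51496, and 45.6 and 152. The values of the other members without it are given above, and why this library held more counts was not tested.

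The nearest genes of the count table outside the stretch, FOLH1B and CHORDC1, were expressed in the controls and moved little beside the members. Within 1 Mb on either side, RefSeq and the count table share 9 genes, of which 3 had enough counts, and all 3 passed edgeR's quasi-likelihood test in both comparisons with GFP. The background is high: over all genes tested 64.8% were called with DUX4 (32.9% higher, 31.9% lower) and 82.5% with DUXC (40.2% higher, 42.3% lower).

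FOLH1B, a relative of the folate hydrolase and glutamate carboxypeptidase gene, ends 4557 bp left of LOC100623167. It had 3.50, 4.01 and 3.57 CPM with GFP, 2.51, 2.52 and 2.49 CPM with DUX4 and 4.26, 4.53 and 4.61 CPM with DUXC. It fell with DUX4 (log2 fold change -0.56 ± 0.12 SE, adjusted p = 7.37e-05 in edgeR) and rose with DUXC (0.28 ± 0.11, adjusted p = 0.0186). The DUXC call was lost without DUXC replicate 3, at adjusted p = 0.0605, without GFP replicate 1, at 0.0829, without GFP replicate 3, at 0.0655, and with no filter on low counts, at 0.0691 (0.000881 to 0.0829 over the alternatives). DUX4 and DUXC themselves differed at FOLH1B (log2 -0.83 ± 0.12, adjusted p = 1.03e-08).

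CHORDC1, which encodes a co-chaperone of HSP90, starts 25944 bp right of NAALAD2. It had 38.1, 39.5 and 39.2 CPM with GFP, 61.2, 57.3 and 54.3 CPM with DUX4 and 63.5, 65.6 and 65.2 CPM with DUXC. It rose with DUX4 (log2 0.57 ± 0.04, adjusted p = 7.00e-17 in edgeR) and with DUXC (0.73 ± 0.04, adjusted p = 1.40e-21). NOX4, the gene of a hydrogen peroxide producing NADPH oxidase (22622105 to 22776691), fell from 85.7 ± 1.05 CPM to 37.3 ± 0.728 CPM with DUX4 (log2 -1.20 ± 0.04, adjusted p = 1.49e-31) and to 55.3 ± 1.29 CPM with DUXC (log2 -0.63 ± 0.04, adjusted p = 2.42e-21). The remaining flanking genes were too scarce for the test, among them the pigment enzyme gene TYR with 13, 3 and 7 counts over the GFP, DUX4 and DUXC libraries and the glutamate receptor gene GRM5 with 0, 7 and 10.

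Relatives and partners of NAALAD2 moved in both directions. Of 11 other genes of the M28 peptidase and transferrin receptor family in the table, 10 were tested. With DUX4 4 rose and 5 fell (median log2 0.07, against 0.00 over all genes), and with DUXC 4 rose and 6 fell (median -0.66, against -0.03). Of all genes tested, 32.9% rose and 31.9% fell with DUX4, and 40.2% rose and 42.3% fell with DUXC. The transferrin receptor gene TFRC went from 164.8 ± 3.49 CPM with GFP to 199.1 ± 4.62 CPM with DUX4 and 95.2 ± 2.28 CPM with DUXC, while the carboxypeptidase gene CPQ fell from 61.1 ± 1.09 to 40.5 ± 2.22 and 30.8 ± 0.139 CPM. ERMP1 fell with both (log2 -0.13 and -1.09), and the glutaminyl cyclase gene QPCT rose with DUX4 (0.44) and fell with DUXC (-1.44). The adjusted p-values of these 4 genes in edgeR were at most 0.00533.

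Among receptors, transporters and enzymes that handle glutamate or N-acetylaspartylglutamate, 8 of 15 in the table were tested. With DUX4 5 rose and 2 fell (median log2 1.51, against 0.00 over all genes), and with DUXC 4 rose and 3 fell (median 0.82, against -0.03). Of those that rose with DUX4, GRM2, GRM7, GRM8 and SLC1A1 were at 0.0677 to 0.404 CPM with GFP and 0.356 to 1.41 CPM with DUX4. Such scarce genes pass the filter on low counts more readily when a transgene raises them, so nothing is read from these medians. Over all genes tested 64.8% were called with DUX4 and 82.5% with DUXC. The glutamate transporter gene SLC1A6 rose with DUX4 from 2.88 ± 0.137 to 16.9 ± 1.08 CPM and fell to 0.851 ± 0.112 CPM with DUXC. RIMKLB, whose enzyme makes N-acetylaspartylglutamate, fell from 23.4 ± 1.25 to 6.68 ± 0.887 and 11.6 ± 0.476 CPM. The transporter gene SLC1A3 fell with both (log2 -2.89 and -1.12), and the receptor gene GRM8 rose with both (2.35 and 4.65), to 0.356 and 1.77 CPM. The adjusted p-values of these 4 genes in edgeR were at most 5.25e-05.

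UBTF, the relative of UBTFL1, acts with RNA polymerase I, and 21 genes of that machinery were tested. With DUX4 14 rose and none fell (median log2 0.18), where 32.9% of all genes tested rose and 31.9% fell. With DUXC 11 rose and 8 fell (median 0.14), where 40.2% of all genes rose and 42.3% fell. UBTF itself went from 95.4 ± 2.79 CPM with GFP to 101 ± 2.04 CPM with DUX4 (log2 0.08, adjusted p = 0.0291 in edgeR) and 67.3 ± 1.03 CPM with DUXC (-0.50, adjusted p = 3.65e-18). With DUX4 the split was 14 to 1 in limma, without DUX4 replicate 2 and without GFP replicate 2. With DUXC the split was 13 to 6 when library size alone set the scale. The largest calls by p were TWISTNB, a polymerase I subunit gene (log2 0.68 with DUX4 and 2.09 with DUXC), and the TBP-associated factor gene TAF1B, which rose with DUXC (1.46, adjusted p = 4.51e-32 in edgeR) and was at -0.01 with DUX4 (adjusted p = 0.824). POLR2L, a subunit gene shared between polymerases, rose with DUX4 (0.61) and fell with DUXC (-0.93), and TBP rose with both (0.27 and 1.07).

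Further lists were counted in the same fit, again beside 32.9% of all genes higher and 31.9% lower with DUX4, and 40.2% and 42.3% with DUXC. Of 42 tested tripartite motif genes 14 rose and 14 fell with DUX4, and 21 rose and 17 fell with DUXC. Among those that rose with DUXC, TRIM17, TRIM29, TRIM31, TRIM67 and TRIM72 had at most 0.0509 CPM with GFP or DUX4. These were at 0.355 to 2.56 CPM with DUXC and passed the filter on low counts only through it, so nothing is read from that split. TRIM32 rose with both (log2 0.20 and 1.82), as did TRIM33 (0.11 and 1.13) and TRIM52 (0.17 and 0.89), and TRIM8 fell with DUXC (-1.29) and was at 0.06 with DUX4 (adjusted p = 0.222 in edgeR). Of 19 tested genes of JmjC domain proteins, histone demethylases among them, 8 rose and 5 fell with DUX4, and 13 rose and 4 fell with DUXC. JMJD1C (0.28 and 2.65) and PHF8 (-0.25 and 1.94) passed in both. KDM5A and KDM2A rose with DUXC (1.39 and 0.93) and were at -0.07 (adjusted p = 0.106) and -0.05 (adjusted p = 0.198) with DUX4. Of the genes named from these lists, CPQ, SLC1A6, GRM8, TWISTNB, TAF1B, POLR2L, TRIM32, TRIM52, JMJD1C and KDM5A overlap the span of another gene, so their counts may hold reads of it.

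Outside the stretch, the genes with a symbol of their own (no LOC identifier) whose pattern lay closest to the summed members were sought among 12244 genes of at least 1 CPM in the highest group. Likeness was the Euclidean distance between log2(CPM + 0.1) values, centred over the 9 libraries. C13H3orf56 on chromosome 13 was the closest, at a distance of 3.07, at 0.0330 ± 0.0373 CPM in the GFP, 158.4 ± 13.1 CPM in the DUX4 and 2601 ± 158.6 CPM in the DUXC group. RFPL4B on chromosome 1, HSPA6 on chromosome 4, MYOZ2 on chromosome 8 and OLR1 on chromosome 5 followed at 8.52, 8.71, 9.51 and 9.77. MYOZ2 overlaps the span of SEC24D.

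The last 4 had lower levels with both transgenes than C13H3orf56 or the sum. HSPA6, a heat shock protein gene, had 0.532 ± 0.185, 100.2 ± 23.8 and 151.2 ± 10.3 CPM for GFP, DUX4 and DUXC. OLR1, the gene of a receptor for oxidised low-density lipoprotein, had 0.0338 ± 0.0152, 3.995 ± 0.118 and 64.8 ± 3.18 CPM. RFPL4B had no count with GFP, 17.9 ± 2.41 CPM with DUX4 and 26.1 ± 1.84 with DUXC. MYOZ2, which encodes a Z-disc protein of muscle, had 0.0420 ± 0.0142, 13.5 ± 0.612 and 23.97 ± 1.23 CPM.

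On the same measure the members lay at 0.473 (LOC100737633), 1.32 (LOC100623167), 3.42 (LOC100623257), 5.37 (LOC100524034), 7.18 (LOC100737224), 11.0 (NAALAD2) and 13.3 (LOC106504145) from their own sum. C13H3orf56 was thus closer to the sum than 5 of the 7 members were. The sum is dominated by the first 2 of these genes, and the pseudocount weighs on genes with few counts. A small distance does not mean a like ratio of DUXC to DUX4. As fitted log2 values that ratio was 1.83 for LOC100737633 and 1.89 for LOC100623167. It was 4.04 for C13H3orf56, 4.02 for OLR1, 0.54 for RFPL4B, 0.60 for HSPA6 and 0.82 for MYOZ2.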

How the data were processed

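RNA was sequenced from 9 libraries in 3 groups of 3. The authors deposited raw read counts per gene. Per the submitters' processing notes the tools were CASAVA 1.9, Trim Galore and featureCounts with build Sscrofa11.1, and per the file headers the alignment files carried the name subread. The annotation release, the strand setting and the handling of reads that match several places were not given in the sources used here. Per the labels the library kit was stranded.

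Gene positions came from RefSeq for Sscrofa11.1, which matched 26838 symbols (98.2%), without strand. Counts were scaled with TMM factors (0.960 to 1.06), and 15956 genes passed filterByExpr by group. All 9 libraries were fitted by group with edgeR 4.0.16 in R 4.3.3 (quasi-likelihood, robust, two-sided), with Benjamini-Hochberg adjustment over all genes of a contrast and a threshold of 0.05. Alternatives used limma 3.58.1 and DESeq2 1.42.0. Ratios of single members to GFP are ratios of pooled counts over effective library sizes, with exact 95% counting intervals. Ratios of DUXC to DUX4, and of the summed level, are ratios of mean CPM, with the range over pairs of libraries. The floor for a group without counts is 3 counts over its libraries.

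The members and gene lists were chosen with earlier results of these data known. Named were all members and genes within the stretch, the tested flanking genes, up to 4 genes of each list by smallest adjusted p against GFP, and the 5 genes most like the summed members. Members and UBTFL1 were left out of the list counts. Libraries of a group differed beyond sampling noise (chi-square per degree of freedom 2.66 to 18.6). Relatives of the members by sequence were not analysed here.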

Additional observations from a re-analysis of the deposited data

How the results depend on the processing

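The log2 fold changes of the 7 members and UBTFL1 in 3 contrasts were recomputed under 15 alternatives, giving 360 values: 348 moved by less than the spread between libraries, 12 moved by more and 0 changed sign. Of the 12, 6 came from leaving out GFP replicate 1, 5 were of LOC106504145 against GFP, which has no control count, and 1 was of LOC100737633 with library size alone. Library size alone moved the median of all genes for DUXC against GFP from -0.03 to 0.09, gave the members 16041 CPM with DUXC and put the ratio of DUXC to DUX4 at 4.52. Without LOC100623167 the sum was 1290.5 CPM with DUX4 and 6637 CPM with DUXC, 3734 and 19202 times GFP, and the ratio of DUXC to DUX4 was 5.14. These sums differ because fewer genes were added. Leaving out 1 library at a time gave sums of 0.411 to 0.599 CPM with GFP, 3545 to 3744 with DUX4 and 14867 to 15503 with DUXC, ratios to GFP of 6036 to 8799 and 25432 to 37074, and 4.07 to 4.29 for DUXC to DUX4. Same-numbered libraries of different groups did not deviate together (correlations of -0.026 to 0.0319), so the numbers were not taken as pairs. With the replicate number as a block 10272 genes were called for DUX4 against GFP, 13125 for DUXC against GFP and 13094 between the factors, against 10341, 13165 and 13150 without it, and the counts for the flanking genes and lists were the same as without the block. With no filter on low counts 11 glutamate genes were called with DUX4, GRM5 among them, since more genes were tested. In a window of 5 Mb, chosen after seeing the data, 32, 44 and 46 of 53 tested genes were called in the 3 contrasts. Of all genes tested, 64.8% were called for DUX4 against GFP, 82.5% for DUXC against GFP and 82.4% between the factors. Control counts of 0 to 25 per member limit every ratio to GFP.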

Other observations

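In the window of 5 Mb on either side of the stretch, 20 of the 53 tested genes rose and 12 fell with DUX4 (median log2 -0.02), and 28 rose and 16 fell with DUXC (median 0.29, against -0.03 over all genes tested). The background shares were 32.9% higher and 31.9% lower with DUX4 and 40.2% higher and 42.3% lower with DUXC in edgeR's test. Among the genes that rose were 4 that were near 0 with GFP and abundant with DUXC, so such levels on this chromosome were not confined to the stretch of the 7 members. They were picked out after their values were seen. LOC100514356 had 0.0999 ± 0.0632 CPM with GFP, 102.8 ± 7.65 CPM with DUX4 and 2087 ± 110 CPM with DUXC. LOC100627380 had 0.0416 ± 0.0377, 44.7 ± 3.81 and 1264 ± 66.3 CPM for the same groups. LOC100514912 had 0.0249 ± 0.0245, 39.2 ± 5.92 and 543 ± 37 CPM, and LOC100627657 0.0249 ± 0.0245, 3.997 ± 0.644 and 132.9 ± 8.64 CPM. No test is attached to these 4 genes, since they were picked by the very levels that a test against GFP would compare. All 4 are nonetheless counted above among the genes that rose, and passed the filter on low counts only through a transgene. HEPHL1 (0.0171 CPM with GFP, 0.389 with DUXC) and GPR83 (0.0766 and 0.593) passed it only through DUXC. Nothing is therefore read from the counts and medians of this window.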
